A study of Mus musculus with 2 samples.

Results

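Actn2-expressing ILC2s were studied in 2 single-cell libraries of sorted mouse lung cells, one from WT and one from Pac1–/– mice. The cells were chosen by their own transcript counts: 2 or more unique molecular identifiers (UMIs, each of which stands for 1 captured transcript molecule) of Actn2 and 0 UMIs of S1pr1, Il5, Il13 and Il2. Of 8394 WT and 7087 Pac1–/– cells that held at least 500 genes and at most 10% mitochondrial UMIs, 36 cells in each library met this rule, or 72 of 15481. They are called Actn2+ cells here. Each was compared with the cell of the same library nearest in total UMIs that had Actn2 at 0 and met the same limits on the other 4 genes, and these 36 cells per library are called matched cells.

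ILC2s, the group 2 innate lymphoid cells, live in barrier tissues such as the lung, carry no assembled antigen receptor and release type 2 cytokines such as IL-5 and IL-13 after alarmin signals, with GATA3 as the lineage-defining transcription factor and ST2 (Il1rl1) as the IL-33 receptor. Actn2 encodes α-actinin-2, an actin cross-linking protein best known from the Z-disc of striated muscle. Cd3g encodes the γ chain of the CD3 complex that carries T cell receptor signals, and ILC2s are known to hold some transcripts of CD3 and T cell receptor genes without the assembled receptor. S100a6 and its relatives encode small calcium-binding proteins, Anxa2 and its relatives encode annexins that bind membranes in the presence of calcium, and Lgals1 and Lgals3 encode galectins that bind β-galactosides.

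The groups were labelled WT and Pac1-KO (Pac1–/– here), and Pac1 is the phosphatase gene annotated as Dusp2. The Pac1–/– line was on the C57BL/6J background. The mice of all animal work were 6 to 8 weeks old and matched by sex and age, and no treatment was given for these libraries. Lung ILC2s had been enriched and sorted as live Lineage- CD90.2+ ST2+ Sca-1+ cells, and the cells of all mice of a genotype were mixed before 1 library was made. The mice cannot be told apart in the mixture, the deletion was in all tissues, and with 1 library per genotype no value below has a replicate check. No p-values are therefore given, and each 95% interval takes in counting error alone.

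The WT library held 56182065 UMIs over 10866 barcodes and the Pac1–/– library 60283285 UMIs over 9495 barcodes. The total per cell ranged from 940 to 13033 UMIs in WT Actn2+ cells (median 4222) and from 3684 to 24043 UMIs in Pac1–/– Actn2+ cells (median 6031.5), and the matched cells had medians of 4222.5 and 6032 UMIs. The libraries shared 29 barcode sequences, none of them in an Actn2+ or a matched cell. Dusp2 stood at 26.0 CPM (UMIs per 1000000 UMIs of the cells summed, 95% interval 24.7 to 27.4) in all kept WT cells and at 0.0857 CPM (0.0278 to 0.200) in all kept Pac1–/– cells. In the Actn2+ cells it gave 7 UMIs in WT and 0 in Pac1–/–, which allows up to 11.6 CPM at 3 counts.

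Because the results turn on genes that were high in the same cells, the sequences before their start sites are shown, as RefSeq gives them for GRCm38.p6 on the gene's own strand. Of 9 genes looked up (Actn2, the 5 companions named below, Crip1, Rgcc and Hes1), 7 were matched, and Lgals1 and Hes1 were not. The 4 runs lie at chr13:12340761-12340982 (Actn2, minus strand, 222 bases), chr9:44980432-44980681 (Cd3g, minus strand, 250 bases), chr3:90612644-90612881 (S100a6, plus strand, 238 bases) and chr9:69453433-69453619 (Anxa2, plus strand, 187 bases). Each ends where the gene begins in GENCODE, which for Actn2, S100a6 and Anxa2 lies 28, 12 and 63 bases before the RefSeq start, and those bases are not printed. Capitals mark the letters CACGTG, a motif that its own reverse strand repeats, and TGANTCA, searched on both strands. No match to one motif overlapped a match to the other.
Actn2: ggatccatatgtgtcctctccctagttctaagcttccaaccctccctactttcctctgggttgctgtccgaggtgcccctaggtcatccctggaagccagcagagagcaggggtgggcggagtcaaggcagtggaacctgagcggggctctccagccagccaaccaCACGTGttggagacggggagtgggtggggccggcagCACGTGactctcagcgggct
Cd3g: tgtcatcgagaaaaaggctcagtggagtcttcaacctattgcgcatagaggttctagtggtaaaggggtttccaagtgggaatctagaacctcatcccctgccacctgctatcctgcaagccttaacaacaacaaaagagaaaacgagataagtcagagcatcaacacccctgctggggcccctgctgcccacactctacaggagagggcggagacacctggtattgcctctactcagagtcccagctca
S100a6: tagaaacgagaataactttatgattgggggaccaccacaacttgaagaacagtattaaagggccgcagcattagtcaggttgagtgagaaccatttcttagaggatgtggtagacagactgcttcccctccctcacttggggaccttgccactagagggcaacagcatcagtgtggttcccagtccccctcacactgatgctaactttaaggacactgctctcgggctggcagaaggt
Anxa2: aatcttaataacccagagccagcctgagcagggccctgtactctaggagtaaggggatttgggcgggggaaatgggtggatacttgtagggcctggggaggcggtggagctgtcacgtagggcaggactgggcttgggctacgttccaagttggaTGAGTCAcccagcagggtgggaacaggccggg
CACGTG stood 2 times in the Actn2 sequence, beginning 56 and 20 bases before the end of the printed run, and 1 match to TGANTCA stood in that of Anxa2, beginning 32 bases before its end. In the 250 bases searched for the other 5 matched genes (Cd3g, S100a6, Lgals3, Crip1 and Rgcc), neither motif was found. Among 32851 RefSeq windows of 250 bases, 6.02% held CACGTG and 6.75% TGANTCA. The matches describe letters only.

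On GRCm38, the protein-coding gene Actn2 (ENSMUSG00000052374) spans chr13:12269426-12340760 and Cd3g (ENSMUSG00000002033) chr9:44969572-44980431, both on the minus strand. S100a6 (ENSMUSG00000001025) spans chr3:90612882-90624181, Lgals1 (ENSMUSG00000068220) chr15:78926725-78930465, Anxa2 (ENSMUSG00000032231) chr9:69453620-69491795 and Lgals3 (ENSMUSG00000050335) chr14:47367751-47386160, all on the plus strand. Another annotated gene overlapped only Anxa2 among these 6: Mir3109 on the same strand and Gm16144 on the opposite one.

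Actn2 itself, used by the rule, gave 79 UMIs in the 36 WT cells (401 CPM) and 91 UMIs in the 36 Pac1–/– cells (351 CPM). Most Actn2+ cells sat at the threshold. In WT, 31 cells had 2 UMIs, 4 had 3 and 1 had 5, and in Pac1–/–, 24 had 2, 7 had 3, 3 had 4 and 2 had 5. Just outside the threshold, 140 WT and 108 Pac1–/– cells had 1 UMI of Actn2 within the same limits. The gene was sparse in the whole libraries, where 10.8% (10.1 to 11.5%) of kept WT cells and 7.79% (7.18 to 8.44%) of kept Pac1–/– cells had any Actn2 UMI and its level was 21.2 CPM in WT and 14.3 CPM in Pac1–/–.

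Actn2+ cells made up 0.429% (0.301 to 0.593%, exact Clopper-Pearson) of kept WT cells and 0.508% (0.356 to 0.703%) of kept Pac1–/– cells, so the shares overlapped within counting error. Among cells that met the limits on the other 4 genes, the shares were 1.26% of 2858 and 1.20% of 3011. The share of cells that reach 2 UMIs of a sparse gene depends on depth, so all cells were also thinned to 2000 UMIs before the rule was applied. This left 15 WT cells (0.201%, 0.112 to 0.331%) and 14 Pac1–/– cells (0.216%, 0.118 to 0.363%).

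Cells with 2 or more Actn2 UMIs met the other limits at shares that differed from those of cells without Actn2 by less than counting error. All 4 genes were at 0 in 36 of 209 such WT cells (17.2%, 12.4 to 23.0%) against 35 of 209 depth-matched cells with Actn2 at 0 (16.7%, 12.0 to 22.5%). In Pac1–/–, it was 36 of 179 (20.1%, 14.5 to 26.7%) against 38 of 179 (21.2%, 15.5 to 28.0%). Il5 had a UMI in 72.2% of the WT cells with 2 or more Actn2 UMIs and in 75.6% of their matches, and in 62.0% and 63.7% in Pac1–/–. S1pr1, the sphingosine-1-phosphate receptor used for exit from tissue, had a UMI in 7.66% against 12.4% in WT and in 6.70% of both in Pac1–/–. Il13 and Il2, the T cell growth factor interleukin-2, likewise had overlapping intervals.

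The 5 genes named with the rule as its companions all had more UMIs in Actn2+ than in matched cells in both libraries. Cd3g, Lgals1 and S100a6 were 2.38- to 2.98-fold higher, and their intervals lay above 0 on the log2 scale in both libraries. Anxa2 was measured by 8 and 7 UMIs, too few to set apart from the 2 UMIs of its matched cells in each library. With 20 comparators per Actn2+ cell, an alternative described below, its log2 intervals lay above 0 in both libraries. Lgals3 was higher in Pac1–/–, by a size that depended on the comparators, and in WT it was nearly undetected. The companions and all gene lists were chosen with results of these data known, so their direction is a description.

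Cd3g gave 50 UMIs in WT Actn2+ cells (254 CPM, 188 to 335) and 21 in matched cells (107 CPM), a log2 ratio of 1.25 (0.49 to 2.06). In Pac1–/–, it gave 66 UMIs (255 CPM, 197 to 324) against 26 (100.1 CPM), a log2 ratio of 1.35 (0.67 to 2.06). Per cell, Cd3g ranged from 0 through a median of 0 to 9.63 UMIs per 10000 in WT Actn2+ cells and from 0 through 0.870 to 12.2 in Pac1–/– Actn2+ cells. The highest matched cells stood at 8.90 and 8.39, so the groups overlapped. A Cd3g UMI was present in 17 of 36 WT cells and in 19 of 36 Pac1–/– Actn2+ cells, against 9 and 6 matched cells, and none was detected in 19 WT and 17 Pac1–/– Actn2+ cells. A single matched Pac1–/– cell held 53.8% of the Cd3g UMIs of its group.

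S100a6 gave 346 UMIs in WT Actn2+ cells (1756 CPM, 1576 to 1951) and 118 in matched cells (599 CPM), a log2 ratio of 1.55 (1.25 to 1.87). In Pac1–/–, the counts were 220 (849 CPM, 740 to 969) and 74 (285 CPM), a log2 ratio of 1.58 (1.19 to 1.98). Per cell, it ran from 0 through a median of 15.7 to 74.2 UMIs per 10000 in WT Actn2+ cells, against a median of 3.52 and a highest value of 53.9 in matched cells. In Pac1–/–, the medians were 5.82 and 1.8 and the highest cells 35.7 and 18.1. All but 1 WT Actn2+ cell had an S100a6 UMI, and 8 Pac1–/– Actn2+ cells had none.

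Lgals1 gave 146 against 52 UMIs in WT (741 and 264 CPM), a log2 ratio of 1.49 (1.02 to 1.98), and 180 against 61 UMIs in Pac1–/– (695 and 235 CPM), a log2 ratio of 1.56 (1.14 to 2.01). Its per-cell median was 7.72 UMIs per 10000 in WT Actn2+ cells and 2.02 in matched cells, with highest values of 26.9 and 13.5. In Pac1–/–, the medians were 4.88 and 0.859 and the highest values 29.2 and 13. In both libraries, 28 of 36 Actn2+ cells had an Lgals1 UMI.

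Lgals3 was at 50 UMIs (193 CPM, 143 to 254) against 11 (42.3 CPM) in Pac1–/–, a log2 ratio of 2.19 (1.23 to 3.28), and 1 cell held 22% of those 50 UMIs. The matched cells were low for this gene: 720 cells with Actn2 at 0, the 20 nearest in depth per Actn2+ cell (an alternative chosen after seeing the data), stood at 81.1 CPM, which gave a log2 ratio of 1.25 (0.80 to 1.68). In WT, it was at 4 UMIs against 2, a ratio of 2.0 with a log2 interval of -1.8 to 4.47, which does not tell the groups apart. Anxa2 was at 8 against 2 UMIs in WT (log2 interval -0.33 to 5.27) and at 7 against 2 in Pac1–/– (-0.58 to 5.11). With the 20 comparators, its log2 ratio was 1.42 (0.14 to 2.49) in WT and 1.46 (0.08 to 2.61) in Pac1–/–.

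**Figure D1:**
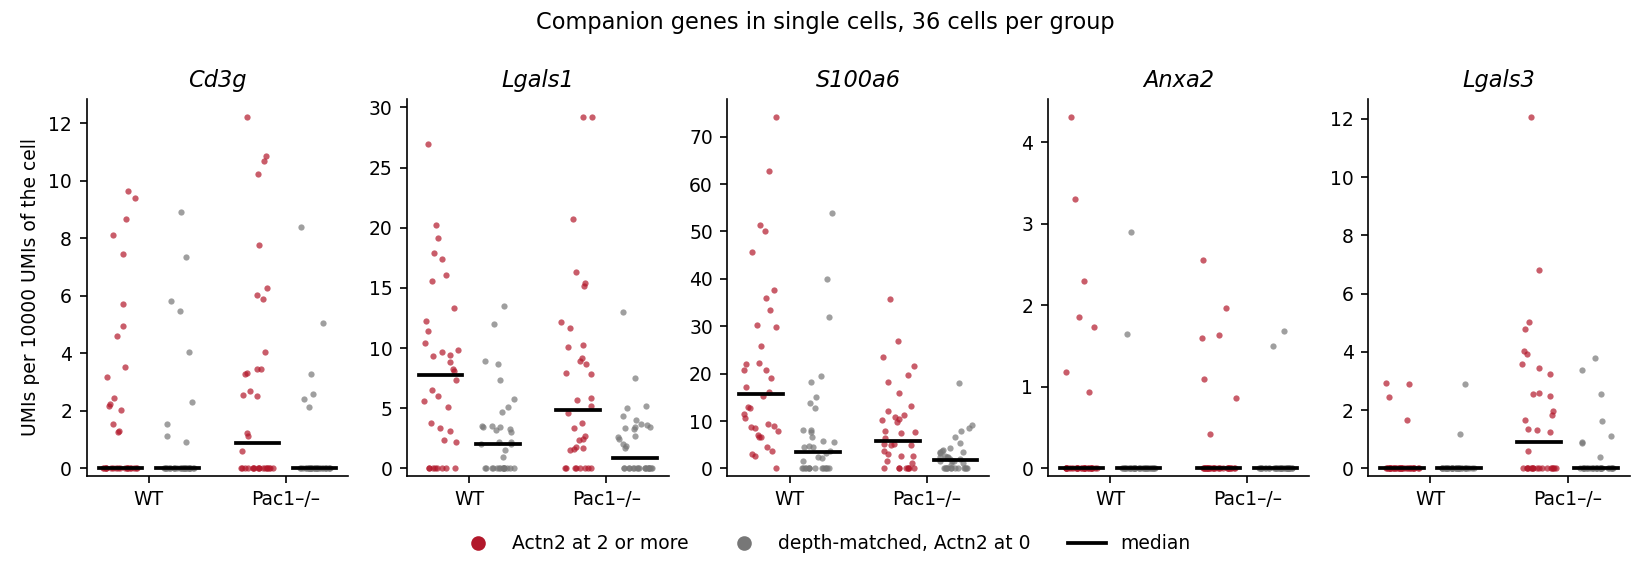
UMIs of each companion gene per 10000 UMIs of the cell (y axis, linear, a scale of its own for each gene) for 36 Actn2+ cells (red) and 36 depth-matched cells with Actn2 at 0 (grey) of each library. Each point is 1 cell and black bars are medians. The S100a6 medians were 15.7 and 3.52 in WT and 5.82 and 1.8 in Pac1–/–, with overlapping cells, and most cells had no Anxa2 UMI.

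Cells with UMIs of several companions were more frequent among Actn2+ than among matched cells. Such a share rises whenever single genes are found in more cells, so it does not show that the companions go together within cells. At least 3 of the 5 had a UMI in 20 of 36 WT Actn2+ cells (55.6%) and in 10 of 36 matched cells (27.8%). In Pac1–/–, this held for 22 cells (61.1%) and 9 cells (25%). Within the Actn2+ cells, those with a Cd3g UMI and those without had nearby levels of S100a6 (1621 CPM in 17 and 1952 CPM in 19 WT cells, 899 CPM in 19 and 776 CPM in 17 Pac1–/– cells), and of Lgals1 (781 and 684 CPM in WT, 666 and 737 CPM in Pac1–/–). S100a6 and Lgals1 were thus above the matched level in Actn2+ cells with no detected Cd3g as well. The WT cells with a Cd3g UMI were deeper (median 7022 against 3444 UMIs).

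Both sets of cells that the rule left out were above their own matched cells in Cd3g, Lgals1 and S100a6. In cells with exactly 1 Actn2 UMI, matched in the same way, Cd3g was 2.0-fold higher in WT (log2 1.0, 0.60 to 1.41; 140 cells) and 2.27-fold higher in Pac1–/– (log2 1.18, 0.80 to 1.58; 108 cells). Lgals1 was 2.23- and 1.88-fold higher and S100a6 1.83- and 1.74-fold higher, with log2 intervals from 0.57 upward. Anxa2 was at 20 against 6 UMIs in these WT cells (log2 1.74, 0.37 to 3.34) and at 10 against 9 in Pac1–/– (0.14, -1.31 to 1.62). Cells with 2 or more Actn2 UMIs that broke a limit on S1pr1, Il5, Il13 or Il2 were compared with depth-matched cells that broke one too but had no Actn2. In these, Cd3g was 1.35-fold higher in WT (log2 0.43, 0.22 to 0.65; 173 cells) and 1.95-fold higher in Pac1–/– (log2 0.96, 0.73 to 1.19; 143 cells), and S100a6 1.40- and 1.98-fold higher. Anxa2, with 98 against 47 UMIs in WT and 90 against 21 in Pac1–/–, was 2.08-fold (log2 1.06, 0.54 to 1.59) and 4.29-fold higher (log2 2.10, 1.40 to 2.86), and Lgals3 2.78- and 2.06-fold higher. Matched 1 to 1, Cd3g, Lgals1 and S100a6 had smaller ratios in the cells outside the limits than in the Actn2+ cells in both libraries. Outside the limits, their log2 values were 0.43, 0.48 and 0.48 in WT and 0.96, 1.16 and 0.98 in Pac1–/–. The intervals of both sets overlapped for Cd3g in both libraries and for Lgals1 in Pac1–/–. With 20 or 2 comparators, Lgals1 in Pac1–/– Actn2+ cells stood at 1.10 or 0.93, below that 1.16. The cells outside the limits were deeper, with medians of 12736 and 15137 UMIs against 4222 and 6031.5, and the part of depth in this difference was not tested.

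**Figure D2:**
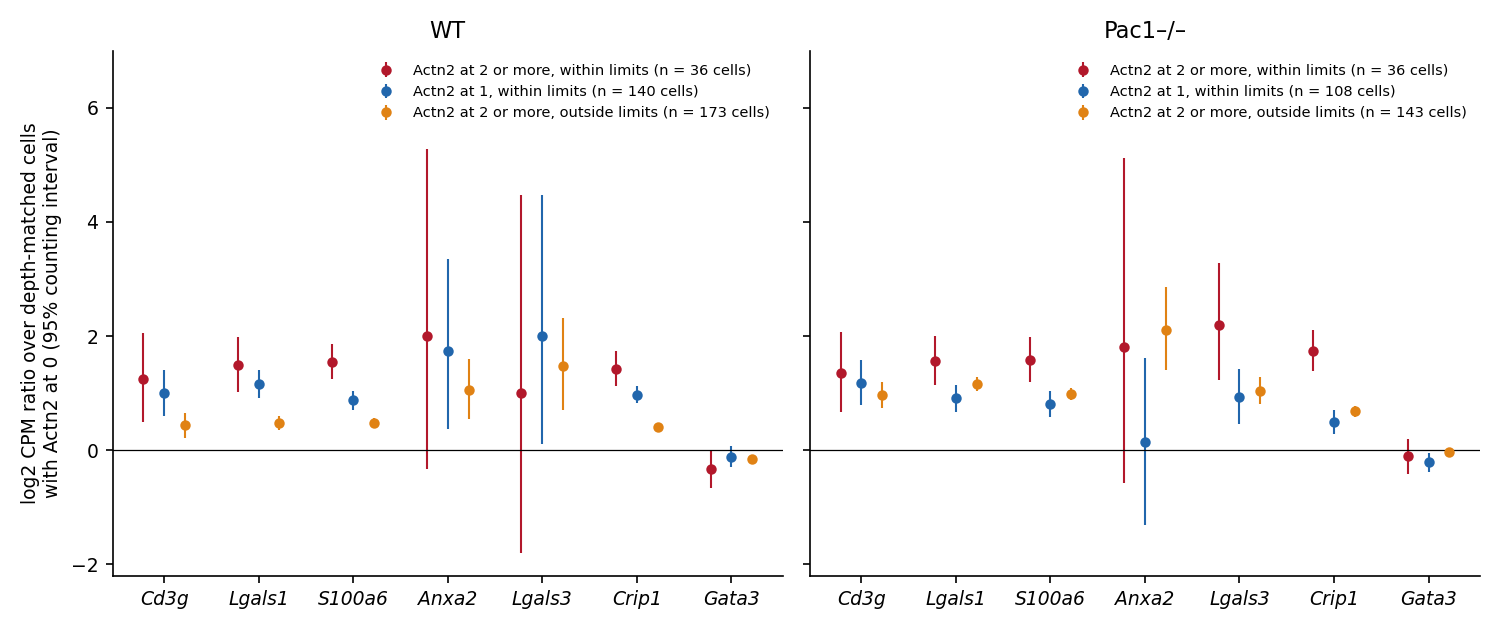
log2 CPM ratio (y axis) over depth-matched cells with Actn2 at 0 for the 5 companions, Crip1 and Gata3 (x axis), in Actn2+ cells (red), in cells with 1 Actn2 UMI within the limits (blue) and in cells with 2 or more Actn2 UMIs outside the limits (orange). Points are ratios and bars 95% counting intervals. Cd3g, Lgals1, S100a6 and Crip1 lie above 0 in all 3 sets of both libraries, and Gata3 lies between -0.33 and -0.04.

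At a fixed depth of 2000 UMIs, Cd3g, Lgals1 and S100a6 were each found in a larger share of cells with an Actn2 UMI than of cells with Actn2 at 0. In WT, Cd3g was found in 16.4% (14.9 to 18.1%) of 2197 thinned cells with Actn2 at 0, in 36.2% (27.9 to 45.0%) of 130 with 1 Actn2 UMI and in 31.4% (16.9 to 49.3%) of 35 with 2 or more. The Pac1–/– shares were 12.3% (11 to 13.7%) of 2473, 34.9% (25.9 to 44.8%) of 106 and 33.3% (18.6 to 51.0%) of 36. For Lgals1, the shares at 0, 1 and 2 or more were 33.9%, 65.4% and 65.7% in WT and 26.2%, 51.9% and 52.8% in Pac1–/–. For S100a6, they were 50.8%, 77.7% and 91.4% in WT and 33.6%, 53.8% and 66.7% in Pac1–/–. Before thinning, the Cd3g shares at 0, 1 and 2 or more were 22.3%, 49.3% and 47.2% in WT and 19.5%, 46.3% and 52.8% in Pac1–/–. Shallower cells left out by thinning numbered 485, 10 and 1 in WT and 394, 2 and 0 in Pac1–/–. The intervals for Cd3g at 1 and at 2 or more Actn2 UMIs overlapped, and so did those at 0 and at 2 or more in WT.

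Free RNA in droplets gives UMIs to cells that do not express a gene, so the same shares were taken in barcodes with at least 2 of 4 B cell genes. That this type lacks these transcripts was assumed and was not tested. At 2000 UMIs, 0 of 10 WT barcodes (which allows up to 30%) and 1 of 23 Pac1–/– barcodes (4.35%) of this kind had a Cd3g UMI, and their median depths were 4298 and 4652 UMIs. S100a6 was found in 3 of 10 and 3 of 23 of them (30% and 13%) and Lgals1 in 4 of 10 and 4 of 23 (40.0% and 17.4%). Actn2 itself was found in 0 of 10 and 1 of 23 of these barcodes (4.35%, 0.11 to 21.9%). Gata3 was also found in 5 of 10 and 8 of 23 of these barcodes (50% and 34.8%), against 62.9% and 69.4% of Actn2+ cells, so they held ILC2 transcripts and are a rough background. The shares of Cd3g, S100a6 and Lgals1 in Actn2+ cells were above these in both libraries. The intervals did not overlap for S100a6 (76.9 to 98.2% against 6.67 to 65.2% in WT, 49.0 to 81.4% against 2.78 to 33.6% in Pac1–/–) and overlapped for Cd3g and Lgals1, with so few B cell barcodes. Lgals3 was found in 3 of 23 Pac1–/– B cell barcodes (13%, 2.78 to 33.6%) and in 30.6% of Pac1–/– Actn2+ cells (16.3 to 48.1%), which overlapped too. The share for Anxa2 at this depth was 2.86% in WT and 2.78% in Pac1–/– Actn2+ cells, near the level of 1 UMI, and no difference is read from it.

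The sort and the label were checked against marker genes. All 10 ILC2 markers (Gata3, Il1rl1, Il7r, Thy1, Ly6a, Klrg1, Icos, Rora, Il17rb and Areg) were detected in the Actn2+ cells of both libraries, summing to 951 UMIs in WT, with 4 to 104 per cell, and 1179 in Pac1–/–, with 12 to 119 per cell. The matched cells summed to 1065 and 1337 UMIs. Gata3 was at 134 UMIs against 168 in WT (log2 ratio -0.33, -0.66 to 0.01) and at 176 against 190 in Pac1–/– (-0.11, -0.41 to 0.20). With 20 comparators the intervals for Gata3 lay below 0, at -0.36 (-0.62 to -0.11) and -0.33 (-0.56 to -0.11). Il1rl1 was at 168 against 152 and at 228 against 223 UMIs. Il7r, which encodes a chain of the IL-7 receptor, was at 168 against 175 and at 274 against 297.

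Of the genes that define T cells, Cd4, Cd8a, Cd8b1, Cd5 and Cd6 were at 0 UMIs in the Actn2+ cells of both libraries. The 12 T cell genes summed to 163 UMIs in WT (0 to 22 per cell) and 327 in Pac1–/– (0 to 35 per cell), against 122 and 235 in matched cells, and most of these UMIs were of Cd3g, Trbc1 and Trbc2. Trac, the constant gene of the α chain, gave 2 UMIs in WT and 0 in Pac1–/–. Cd3e gave 1 and 7 UMIs, against 0 and 1 in matched cells. Of the 7, 5 lay in 1 cell and 2 in the cell with basophil genes described below. With 20 comparators, Cd3e was higher in Pac1–/– (log2 2.58, 1.12 to 3.85). The receptor β constant genes were near their matched level: Trbc1 at 39 against 50 UMIs in WT and 116 against 97 in Pac1–/–, and Trbc2 at 69 against 50 and 135 against 107, with all 4 log2 intervals including 0. With 20 comparators, Trbc1 was lower in WT (-0.53, -1.03 to -0.07) and Trbc2 higher in Pac1–/– (0.32, 0.06 to 0.57). Of the receptor γ constant genes, Tcrg-C4 was at 16 against 15 UMIs in WT and at 42 against 25 in Pac1–/– (log2 0.75, 0.004 to 1.53). Tcrg-C1 was at 0 against 10 in WT, with a counting interval of the log2 ratio up to -1.16, and at 24 against 26 in Pac1–/–. The CD3 and T cell receptor list without Cd3g summed to 129 against 130 UMIs in WT (log2 interval -0.37 to 0.35) and to 330 against 266 in Pac1–/– (0.31, 0.08 to 0.55). Cd3g, a companion chosen with results known, was the member of this list past 2-fold, 1 of 3 measured in WT and 1 of 5 in Pac1–/–, where 0.959% and 1.33% of all genes tested were past 2-fold higher.

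The 5 marker genes of γδ T cells summed to 16 UMIs in 10 WT Actn2+ cells and to 68 UMIs in 22 Pac1–/– Actn2+ cells, against 25 and 58 UMIs in matched cells, most of them of Tcrg-C1 and Tcrg-C4. Trdc, the constant gene of the δ chain, gave 0 and 1 UMIs in Actn2+ cells, and Cd163l1 gave 0 in both. The part of such cells in the result was not tested. Most markers of other cell types were rarer. The 8 genes of smooth or cardiac muscle, the 5 of stromal cells and the 4 of neutrophils were at 0 in all Actn2+ cells, and those of B cells, natural killer cells or ILC1s, macrophages and dendritic cells summed to between 0 and 3 UMIs per library. Epithelial genes gave 3 and 9 UMIs and endothelial genes 4 and 5. Erythroid genes, found in 8 WT and 10 Pac1–/– Actn2+ cells, gave 10 in WT and 24 in Pac1–/–, against 2 and 19 in matched cells. With 20 comparators, the hemoglobin genes Hba-a1 (log2 -0.86, -1.54 to -0.25) and Hba-a2 (-3.11, -6.16 to -1.24) were lower in Pac1–/– Actn2+ cells. In WT, the interval for Hba-a1 then included 0 (0.87, -0.30 to 1.86), so no shared direction is read from these genes. Among 18 other genes of the actinin and Z-disc list, none reached 50 UMIs, and they summed to 28 UMIs in Actn2+ and 27 in matched WT cells and to 28 and 34 in Pac1–/–. Actn4, an actinin of non-muscle cells, gave 27 against 20 UMIs in WT and 13 against 19 in Pac1–/–.

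In 1 Pac1–/– Actn2+ cell, basophil genes were high: 72 UMIs of Mcpt8, 8 of Ms4a2 and 51 of Cpa3, with 40 of Gzmb, among 11121 UMIs. It also had 2 UMIs of Actn2, 4 of Gata3 and 8 of Il1rl1. These were all Mcpt8, Ms4a2 and Gzmb UMIs of the 36 Pac1–/– Actn2+ cells. A second Pac1–/– Actn2+ cell had 12 UMIs of hemoglobin and other erythroid genes. Without cells that held 10 or more UMIs of another type's markers, an alternative chosen after seeing the data, 34 Pac1–/– Actn2+ cells remained and the median companion log2 ratio was 1.68 instead of 1.58. The 5 genes higher in both libraries, named next, were the same 5 without these cells, and Hes1 was no longer called lower in both. Of the 72 cells, 1 (in WT) was a predicted doublet.

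Among all genes with at least 50 UMIs over Actn2+ and matched cells, a 2-fold difference in CPM plus 10 was rare. In WT, 10 of 1043 genes were at least 2-fold higher (0.959%) and 18 at least 2-fold lower (1.73%). In Pac1–/–, 20 of 1506 were higher (1.33%) and 18 lower (1.2%). These 28 and 38 genes depended on the comparators: 12 WT and 19 Pac1–/– genes passed with 20 comparators per Actn2+ cell, and 12 and 20 with all cells that had Actn2 at 0 within the limits. Of 983 genes measured in both libraries, 5 were past 2-fold higher in both (0.509%), namely S100a6, Lgals1, Crip1, Cd3g and Rgcc, and Hes1 was past 2-fold lower in both (0.102%). Of the companions, 3 are among the 5, and the other 2 did not reach 50 UMIs in both libraries. Across these genes, 527 (53.6%) had the same sign in both libraries and the 2 sets of log2 ratios had a Pearson r of 0.28, a description over genes, which are not independent replicates.

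Crip1, a small LIM-domain protein gene, gave 342 against 127 UMIs in WT (log2 ratio 1.43, 1.13 to 1.73) and 290 against 87 in Pac1–/– (1.74, 1.39 to 2.10). Rgcc, a regulator of the cell cycle, gave 54 against 25 (1.11, 0.40 to 1.86) and 105 against 36 (1.55, 0.99 to 2.14). Hes1, a transcriptional repressor downstream of Notch, gave 22 against 117 UMIs in WT (-2.41, -3.14 to -1.75) and 18 against 41 in Pac1–/– (-1.18, -2.07 to -0.35). In cells with 1 Actn2 UMI, Crip1 was 1.96-fold higher in WT and 1.41-fold higher in Pac1–/–, and Hes1 stood at 0.639 and 0.807 times its matched level, with an interval that included no difference in Pac1–/–. Rgcc was 1.74-fold higher in these WT cells and 1.24-fold in Pac1–/– (log2 0.31, -0.02 to 0.64). In cells with 2 or more Actn2 UMIs outside the limits, Rgcc was 1.16- and 1.12-fold higher.

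With 20 comparators per Actn2+ cell, S100a6, Lgals1 and Cd3g stayed past 2-fold in both libraries, as did Hes1. Their log2 ratios were then 1.33, 1.39 and 1.14 in WT and 1.30, 1.10 and 1.35 in Pac1–/–. Crip1 was at 0.98 and 1.38, and Rgcc at 0.61 and 0.95. With the 2 nearest comparators per Actn2+ cell, S100a6, Cd3g and Crip1 stayed past 2-fold in both libraries and Capg joined them, while Lgals1 and Rgcc did not stay. Lgals1 then had a log2 ratio of 1.5 in WT and of 0.93 in Pac1–/–. With no limits on S1pr1, Il5, Il13 and Il2, no gene was past 2-fold in both libraries. Cd3g also left the genes shared by both libraries with Actn2 at 3 or more, where S100a6, Crip1 and Ahnak passed and Cd3g stood at 0.13 in 12 Pac1–/– cells, and with a prior of 50 CPM, where S100a6, Crip1 and Lgals1 passed.

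**Figure D3:**
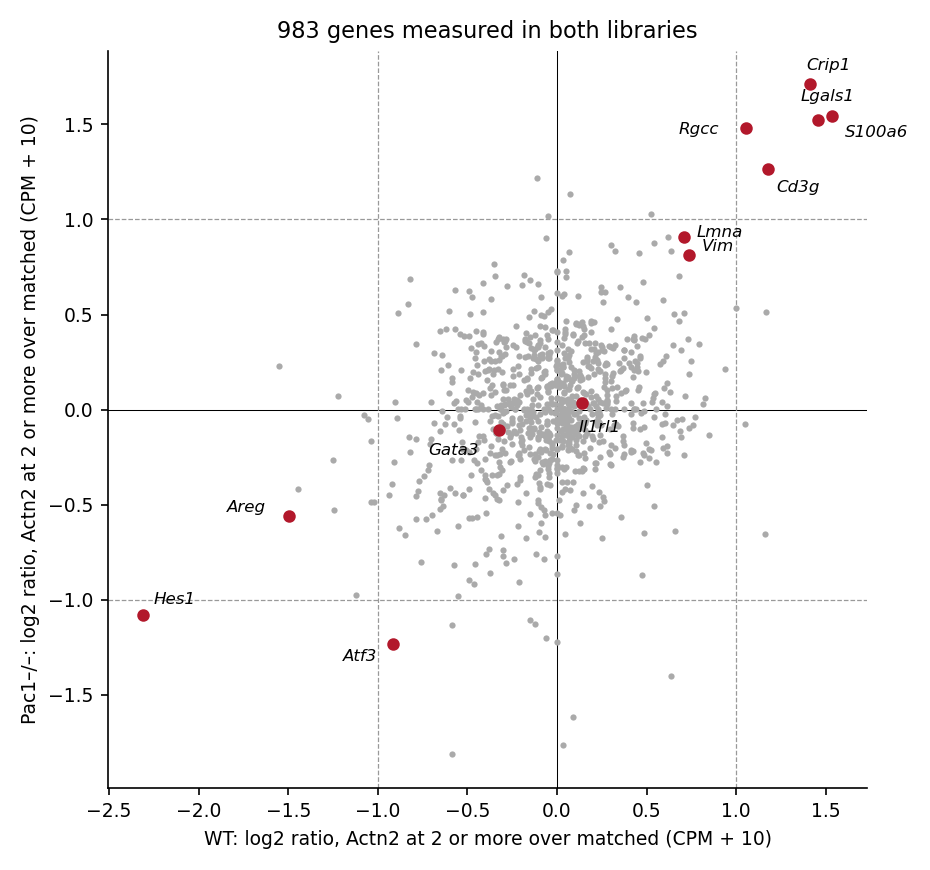
log2 ratio of Actn2+ over matched cells, on the scale of CPM plus 10, in WT (x axis) and Pac1–/– (y axis) for the 983 genes measured in both libraries (grey points, named genes in red). Dashed lines mark 2-fold. The 5 genes S100a6, Lgals1, Crip1, Cd3g and Rgcc lie past 2-fold in both libraries at the upper right, and Hes1 does at the lower left.

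The 15 genes highest in Actn2+ cells in both libraries, ranked by the smaller of both ratios, went on with Vim (intermediate filament vimentin), Lmna (lamin A/C), Rad50, S100a11, Ankrd12, Txnip (a brake on glucose uptake), Cd52, Llph, Ahnak and S100a10. Vim was at 128 against 76 UMIs in WT (log2 ratio 0.75) and at 237 against 134 in Pac1–/– (0.83). Cd52, a small surface glycoprotein of lymphocytes, was at 314 against 215 and at 348 against 189 UMIs. S100a10, the partner of annexin A2 in a well-known heterotetramer, was at 153 against 67 (log2 1.19, 0.77 to 1.63) and at 246 against 172 (0.52, 0.23 to 0.81). None of these 10 except S100a10 and Llph in WT and Ahnak in Pac1–/– reached 2-fold, and with 20 comparators these 3 did not either, at log2 ratios of 0.75, 0.56 and 0.46. Lmna (0.40 and 0.30) and Rad50 (0.39 and 0.22) then had intervals that included 0 in both libraries.

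The 15 lowest in both were Hes1, Gm20186, Atf3, Nfkbiz, Ikzf3, Lncpint, Kctd12, Kdm6b, Nr4a2, Chd2, Gimap6, Prnp, Areg, Tecpr1 and Atf4. Atf3, a stress-induced transcription factor, gave 93 against 177 UMIs in WT (log2 ratio -0.93, -1.31 to -0.56) and 35 against 86 in Pac1–/– (-1.29, -1.90 to -0.71). Areg, the growth factor amphiregulin, gave 52 against 150 (-1.53, -2.01 to -1.06) and 60 against 90 (-0.58, -1.08 to -0.09). Nfkbiz, an inducible nuclear regulator of NF-κB, gave 130 against 221 and 123 against 217 UMIs. With 20 comparators, all 15 were still below 0 in both libraries, but the interval included 0 for Lncpint and Prnp in both, for Tecpr1 and Atf4 in WT and for Ikzf3 and Kctd12 in Pac1–/–. Areg was then at -0.86 in WT and -1.30 in Pac1–/–, so its order between the libraries turned.

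Of the gene families around the companions, the S100 proteins had 5 measured members, S100a4, S100a6, S100a10, S100a11 and S100a13, and all 5 were above their matched level in both libraries, as were 46.2% of all genes tested in WT and 53.1% in Pac1–/–. Past 2-fold were S100a6 and S100a10 in WT and S100a6 in Pac1–/– (S100a10 not with 20 comparators), and the median log2 ratio of the 5 was 0.64 and 0.51, against -0.01 and 0.00 over all genes tested, of which 0.959% and 1.33% were past 2-fold higher. S100a6 was itself a companion chosen with results known, and the list without it summed to 516 against 320 UMIs in WT (log2 0.69, 0.49 to 0.90) and to 819 against 590 in Pac1–/– (0.48, 0.32 to 0.63). S100a4, linked to cell motility, gave 202 against 138 UMIs (log2 0.55, 0.23 to 0.87) and 399 against 296 (0.43, 0.21 to 0.66). S100a13 was near its matched level, at 48 against 43 and 57 against 55 UMIs. With 20 comparators, it was higher in WT (0.51, 0.05 to 0.93), with an interval that included 0 in Pac1–/– (0.15, -0.26 to 0.53).

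The 10 annexins summed to 109 against 55 UMIs in WT (log2 ratio 0.99, 0.51 to 1.48) and to 145 against 94 in Pac1–/– (0.63, 0.24 to 1.02). Anxa1, an anti-inflammatory phospholipid-binding protein gene, gave 32 against 9 UMIs in WT (1.83, 0.73 to 3.08) and 44 against 26 in Pac1–/– (0.76, 0.03 to 1.52), and Anxa5 gave 32 against 12 and 28 against 19. Anxa6 was at 19 against 21 and at 39 against 32. Among the 7 galectins, Lgals9, a ligand of TIM-3, gave 13 against 9 and 13 against 18 UMIs, without a shared direction. Without the companions Lgals1 and Lgals3, the other 5 galectins summed to 31 against 19 UMIs in WT (log2 0.71, -0.16 to 1.61) and to 26 against 32 in Pac1–/– (-0.30, -1.10 to 0.50), so the list was above its matched level through the companions. The annexins without Anxa2 were still above, at 101 against 53 and 138 against 92 UMIs.

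Of the actin cytoskeleton list, 20 genes in WT and 22 in Pac1–/– were measured, 13 and 17 of them were above their matched level, and 1 was past 2-fold in 1 library, Capg in Pac1–/–. Over all genes tested, 46.2% and 53.1% were above and 0.959% and 1.33% past 2-fold higher. Capg, an actin-capping protein gene, gave 39 against 10 UMIs in WT (log2 1.96, 0.93 to 3.13), where it fell short of 50 UMIs in total, and 47 against 22 in Pac1–/– (1.10, 0.34 to 1.90; 0.93 with 20 comparators, under 2-fold). Tmsb4x, which encodes an actin-sequestering peptide, was at 1929 against 1512 UMIs (0.35, 0.25 to 0.45) and at 4032 against 3518 (0.20, 0.13 to 0.27). Actb was 0.23 and 0.20 higher on the log2 scale, and Cfl1, the actin-severing cofilin, was at 109 against 126 and 164 against 213 UMIs.

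The immediate early list, genes that cells switch on within minutes of a stimulus, was below its matched level in most members. Of 14 measured, 3 were above in WT and 1 in Pac1–/–, where 46.2% and 53.1% of all genes tested were above. None in WT and 3 in Pac1–/– (Nr4a2, Nr4a3 and Atf3) were past 2-fold lower, against 1.73% and 1.2% of all genes, and with 20 comparators Nr4a3 did not reach 2-fold (-0.90). The list summed to 3584 against 4193 UMIs in WT (log2 ratio -0.23, -0.29 to -0.16) and to 4399 against 5442 in Pac1–/– (-0.30, -0.36 to -0.24). Junb, at 596 against 800 and 889 against 1112 UMIs, and Dusp1, at 114 against 161 and 122 against 230, were lower in both, Dusp1 in WT with an interval that included 0 with 20 comparators (-0.23, -0.52 to 0.04). Jun was at 517 against 414 UMIs in WT (0.32, 0.13 to 0.51) and at 544 against 577 in Pac1–/– (-0.08, -0.25 to 0.09; -0.27, -0.40 to -0.15 with 20 comparators).

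The lists of ILC2 transcription factors, cytokine receptors, and migration and residency had summed log2 ratios near 0. The 10 ILC2 markers given above, in contrast, summed to fewer UMIs in Actn2+ than in matched cells in both libraries. Their sums were 951 against 1065 UMIs in WT and 1179 against 1337 in Pac1–/–. The ILC2 transcription factors summed to 1363 against 1365 UMIs in WT (log2 interval -0.11 to 0.11) and 1477 against 1453 in Pac1–/– (0.03, -0.08 to 0.13), and none of 8 and 10 measured genes was past 2-fold, a count near the background of 0.959% and 1.33% of all genes higher and 1.73% and 1.2% lower. With 20 comparators, the Pac1–/– sum was lower (-0.11, -0.18 to -0.03). Rora, which ILC2s need to develop, was at 290 against 279 and at 242 against 317 UMIs. The cytokine receptors summed to 678 against 721 and 870 against 852, and the migration and residency list to 1034 against 1057 and 1364 against 1344. In the latter, Klf2, a factor that drives S1pr1, was past 2-fold lower in Pac1–/– (31 against 86 UMIs, log2 -1.47, -2.11 to -0.86) and stood at 14 against 27 in WT. The glycolysis list summed to 338 against 315 UMIs in WT (log2 interval -0.12 to 0.33) and to 477 against 459 in Pac1–/– (-0.13 to 0.25).

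Among effector genes other than those of the rule, Tnf was past 2-fold higher in WT Actn2+ cells (57 against 18 UMIs, log2 1.66, 0.88 to 2.52) and at 14 against 17 UMIs in Pac1–/–. Ccl1, a chemokine of type 2 lymphocytes, was level in WT (80 against 78) and past 2-fold lower in Pac1–/– (14 against 54, log2 -1.94, -2.91 to -1.08). Csf2, which encodes GM-CSF, was lower in both, at 92 against 145 (-0.66, -1.05 to -0.27) and 111 against 156 (-0.49, -0.85 to -0.13; -1.27 with 20 comparators). Of the neural signal receptors, Calcrl and Ramp1, which form the CGRP receptor, were at 51 against 36 and 66 against 53 UMIs in WT and at 38 against 23 and 93 against 86 in Pac1–/–, with intervals that included 0 (with 20 comparators, not for Ramp1 in WT, at 0.39, or Calcrl in Pac1–/–, at 0.55). Gpr65, a proton sensor, was at 36 against 73 in WT (-1.02, -1.64 to -0.43) and 26 against 23 in Pac1–/–.

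**Figure D4:**
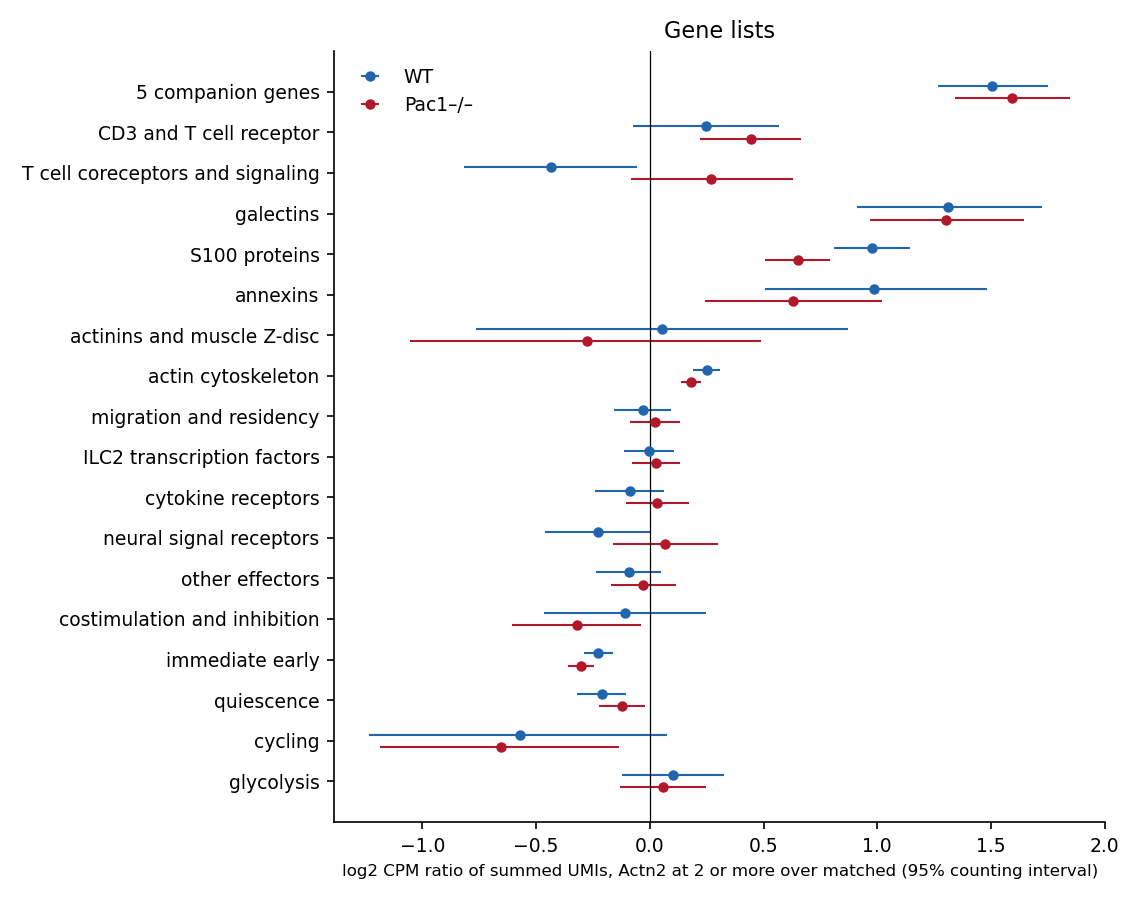
log2 CPM ratio of the summed UMIs of each gene list (x axis) in Actn2+ over matched cells, for WT (blue) and Pac1–/– (red), for the lists with at least 10 UMIs in each group. Bars are 95% counting intervals. The 5 companions, galectins, S100 proteins and annexins lie above 0 in both libraries (the galectins by Lgals1 and Lgals3, which are companions), immediate early genes below, and the interval of the ILC2 transcription factors holds 0 in both.

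Actn2+ cells did not form a compact group. In 30 principal components of genes that excluded the 5 genes of the rule, 1.67% of the 15 nearest neighbours of WT Actn2+ cells were Actn2+ cells, against 0.556% for matched cells and 0.429% in the library. In Pac1–/–, it was 2.96% against 0% and 0.508%. A neighbour of their own kind was found for 8 of 36 WT and 10 of 36 Pac1–/– Actn2+ cells, and no cell had more than 3. Neighbours with 2 or more Actn2 UMIs, whatever their other genes, made up 6.11% against 2.04% in WT and 9.63% against 3.15% in Pac1–/–.

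Between genotypes, Cd3g and Lgals1 stood at levels that differed by less than counting error in Actn2+ cells, with log2 ratios of Pac1–/– over WT of 0.01 (-0.55 to 0.57) and -0.09 (-0.42 to 0.23). S100a6 was lower in Pac1–/– Actn2+ cells (-1.05, -1.30 to -0.80) and to a like extent in matched cells (-1.07, -1.51 to -0.64). Lgals3 was higher in Pac1–/– Actn2+ cells (3.25, 1.8 to 5.18) and was also higher in matched cells at 11 against 2 UMIs (2.06, -0.14 to 5.28). The median over the 5 companions was -0.09. It was 0.12 without the limits on S1pr1, Il5, Il13 and Il2 and -0.75 with Actn2 at 3 or more, so its direction depended on the rule. Over all cells with Actn2 at 0 within the limits, Lgals3 stood at 9.25 CPM (7.42 to 11.4) in 2682 WT cells and at 77.8 CPM (73.3 to 82.6) in 2867 Pac1–/– cells. The differences between the libraries in S100a6 and Lgals3 were therefore present with Actn2 at 0 as well, and genotype and library cannot be told apart.

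Of 1277 genes with at least 50 UMIs over both sets of Actn2+ cells, 27 were at least 2-fold higher in Pac1–/– (2.11%) and 60 at least 2-fold lower (4.7%). The 10 highest were Mcpt8 and Cpa3, with 72 of 72 and 51 of 54 UMIs in the cell with basophil genes, and Lgals3, Krit1, Park7, Wasf2, Hspd1, Cebpb, Ly6a and Smdt1. Ly6a, which encodes Sca-1 and was used in the sort, was at 15 UMIs in WT and 50 in Pac1–/– Actn2+ cells, and at 23 and 75 in matched cells. Cebpb was at 19 and 63, and at 31 and 92 in matched cells. Besides Mcpt8 and Cpa3, Krit1, Park7, Wasf2, Hspd1 and Smdt1 were past 2-fold in Actn2+ cells and not in matched cells, and the difference of the differences has no test here.

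Among the 10 lowest in Pac1–/– Actn2+ cells were Gm10076, Ccl1, Gm43305, Rpl9-ps6, Gm42031, Tnf, Arhgap31, Rab8b and Trdv4. Tnf gave 57 UMIs in WT and 14 in Pac1–/– Actn2+ cells (log2 -2.42, -3.38 to -1.56), and matched cells had 18 and 17 UMIs (-0.48, -1.53 to 0.56). Ccl1 gave 80 and 14 UMIs in Actn2+ cells (-2.91, -3.84 to -2.08) and 78 and 54 in matched cells (-0.93, -1.46 to -0.41). Gm10076, a gene model that can share reads with relatives, had a log2 ratio of -3.05 in Actn2+ cells and of -3.07 in matched cells.

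**Figure D5:**
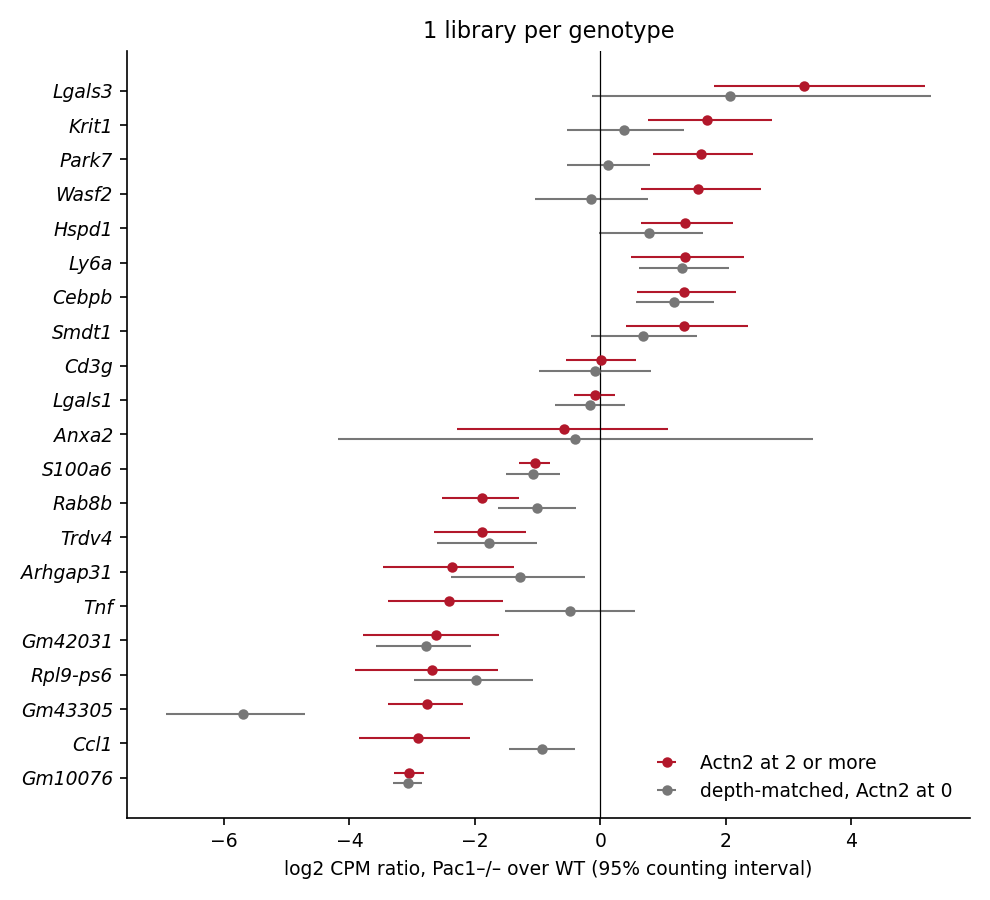
log2 CPM ratio of Pac1–/– over WT (x axis) in Actn2+ cells (red) and in matched cells (grey), for the 5 companions and genes among the 10 highest and 10 lowest of the genotype comparison, without genes at 0 in a group. Bars are 95% counting intervals and each genotype is 1 library. S100a6 stands at -1.05 and -1.07, and Tnf at -2.42 in Actn2+ and -0.48 in matched cells.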

How the data were processed

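Single-cell 3′ libraries (10x Genomics, v3.1 chemistry) of sorted lung ILC2s were made from pooled WT and from pooled Pac1–/– mice, 1 each. Per the labels, the authors aligned to mm10; their processing notes name Cell Ranger 6.1.1 and the file headers cellranger 4.0.0. The deposited values are raw UMI counts per gene and barcode. Barcodes with at least 500 genes and at most 10% mitochondrial UMIs were kept, and doublets were not removed. Members and gene lists were chosen with earlier results of these data known. Each member was paired, without replacement (seed 1), with the nearest kept barcode in total UMIs. Counts were summed per group and scaled to CPM; 95% intervals were exact (Poisson, conditional binomial, Clopper-Pearson). Genes with at least 50 UMIs over both groups were compared across the whole table as log2 of CPM plus 10, without the 5 rule genes, and a 2-fold difference was called. The text names the companions, examples from each list, the 15 genes highest and the 15 lowest in both libraries, and the 10 highest and 10 lowest between genotypes; some of these genes are not reported here. Thinning drew 2000 UMIs per cell. On simulated data, 4-fold changes were recovered in 100% of genes and 2-fold increases in 42.9% (WT, 1011 genes) and 38% (Pac1–/–, 1436 genes). Of unchanged genes, 0.118% and 0.315% passed. The simulated counts were Poisson draws without variation between cells, so these rates take in counting error alone. Scripts ran in Python 3.11.15 with scipy 1.17.1 for intervals, scikit-learn 1.9.0 for components and neighbours, pandas 2.3.3, numpy 2.4.6 and matplotlib 3.10.9. Gene coordinates came from GENCODE (GRCm38) and promoter sequences from RefSeq (GRCm38.p6).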

Additional observations from a re-analysis of the deposited data

How the results depend on the processing

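No paired analysis was possible because each genotype was 1 library, and for the same reason no replicate could be left out. Depth limits Anxa2 and, in WT, Lgals3. Of 2-fold increases simulated without variation between cells, 42.9% were recovered in WT and 38% in Pac1–/–. All companion ratios with a finite value stayed above 0 under the alternatives run (12 per gene and library; 11 for Lgals3 in WT, whose comparators had 0 UMIs with Actn2 at 3 or more). Cd3g ranged from 0.50 to 3.81 (log2) in WT and from 0.13 to 1.5 in Pac1–/–, and S100a6 from 0.58 to 1.69 and from 0.99 to 1.68. Leaving out predicted doublets, a stricter quality filter and another scaling gave values close to those reported. Another seed gave identical values and is no further check on the ratios. In WT, leaving out barcodes with a T cell UMI or with 10 or more UMIs of another type's list changed no companion ratio either. A setting meant to leave out barcodes with a T cell UMI kept 36 WT and 35 Pac1–/– Actn2+ cells. The 12 T cell genes had UMIs in 33 and 34 Actn2+ cells, so this setting was no test of cells with T cell genes. The causes of the shifts that follow were not tested. With Actn2 at 3 or more (5 WT and 12 Pac1–/– cells), the shares were 0.0596% and 0.169%, the companion median was 2.22 in WT and -0.75 between genotypes, 13 WT genes passed 2-fold, and 3 were higher and 0 lower in both libraries. With Actn2 at 1 or more, the shares were 2.10% and 2.03%, the companion medians 1.23, 1.09 and -0.32 (WT, Pac1–/– and between genotypes), and 18 and 16 genes passed, 3 higher and 0 lower in both. Without limits on S1pr1, Il5, Il13 and Il2, the shares were 2.49% and 2.53%, the medians 0.58, 1.11 and 0.12 (the last against -0.09), and 5 and 8 genes passed, 0 higher and 0 lower in both. Thinning before the rule gave shares of 0.201% and 0.216%. With all comparators unmatched, the WT median was 1.15, and 12 and 20 genes passed, 3 higher in both. With 2 comparators, 22 Pac1–/– genes passed. With 20 comparators, added after seeing the data, the Pac1–/– median was 1.30, and 12 and 19 genes passed, 3 higher in both. A prior of 50 CPM gave 13 and 20 genes, 3 higher and 0 lower in both. A minimum of 1 UMI gave 1966 and 1047 genes against 28 and 38, with 82 higher and 49 lower in both. Without cells holding 10 or more UMIs of another type's list, also added later, 0 genes were lower in both.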
